A study of Caenorhabditis elegans with 2 samples.

Results

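The his genes of Caenorhabditis elegans encode the histones, the proteins around which nuclear DNA is wound. All genes of the Ensembl WBcel235 annotation whose name is his- followed by a number were taken, which gave 72 of 19973 protein-coding genes. They carry 50 names, because 36 of the genes share a name with at least 1 other gene. The data are ChIP-seq of eGFP-tagged NHR-28, a nuclear hormone receptor, a class of DNA-binding zinc-finger transcription factors. The worms were whole L3 larvae of mixed sex from strain OP317, which carries unc-119(ed3) III and the transgene wgIs317. The labels put both samples, 2 biological replicates, in this same state, so there was no other genotype, stage or treatment to compare and no untagged strain among the lists. The authors deposited a list of candidate regions for replicate 1 (30000 regions of 350 bp), one for replicate 2 (30000 of 340 bp), one for the pooled data (20876 of 340 bp) and a final list of 162 peaks. Each region has an authors' signal value, whose scale was not stated, so regions were compared by rank within a list. The signal medians were 5.33, 8.68 and 13.1 in the replicate 1, replicate 2 and pooled lists. The lists hold no read counts, so the depth behind each region is unknown.

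Nucleosomes contain the core histones H2A, H2B, H3 and H4, and histone H1 binds the linker DNA between them. In C. elegans most core histone genes lie in clusters as divergent pairs, with H2A facing H2B and H3 facing H4 across a short shared promoter. Their transcripts are made mainly during DNA replication and end in a stem-loop bound by the protein CDL-1, whereas the variant H3.3 is made from separate genes and is deposited outside replication as well.

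Genes at most 5000 bp apart were joined into loci, which gave 11 clusters of 3 or more genes (61 genes), 3 pairs (6 genes) and 5 single genes. The clusters lie on chromosomes II, IV and V. By their RefSeq product names the genes comprise 17 for H2A, 16 for H2B, 15 for H3, 16 for H4, 5 for H3.3 or H3.3-like proteins, 1 for H1 and 2 for short histone domain proteins. Of the 72 genes, 35 have an exact copy elsewhere in the genome. How far such copies affected the lists was not tested, because read length and the treatment of reads that match several places were not stated. To describe the repeats, a 50-base window of sequence was called unique if it occurs only once in the genome on either strand. In the gene and 1000 bp on either side, the median histone gene had 42% unique windows, against 99.9% for all protein-coding genes. For 15 histone genes no window was unique. The median was 31.4% in clusters, 96.3% in pairs and 100% for single genes.

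Selected sequences at histone genes are printed 5′ to 3′ from the RefSeq WBcel235 genome (ce11), in lower case. They are shown because the strongest region at a histone gene holds GGGGACACA, a short motif that is also in 8 of the 14 spacers between divergent H3 and H4 genes and 7 of the 16 between H2A and H2B genes. Capitals mark GGGGACACA or TATAAA on either strand, and GAGAGA on either strand. The first is the part of the final peak between the gene C50F4.6 and the annotated start of the H4 gene his-37, at chrV:9546842-9547104, plus strand. The second is the middle of the next strongest region, upstream of the H3 gene his-42, at chrII:13828972-13829271, minus strand, which held none of the motifs searched. The other 4 are spacers between divergent H3 and H4 genes on the plus strand, shortened by 40 bp at each end, at chrIV:7488033-7488208, chrV:8847745-8847902, chrII:13819978-13820169 and chrV:16042324-16042479. The printed stretches of the his-50/his-49 and his-14/his-9 spacers each occur 3 times in the genome, and the other printed sequences once. The his-2/his-1 spacer is shown as one without GGGGACACA. Of the 4 printed spacers, only that of his-60/his-59 held the middle of a region in any list.
his-37 region: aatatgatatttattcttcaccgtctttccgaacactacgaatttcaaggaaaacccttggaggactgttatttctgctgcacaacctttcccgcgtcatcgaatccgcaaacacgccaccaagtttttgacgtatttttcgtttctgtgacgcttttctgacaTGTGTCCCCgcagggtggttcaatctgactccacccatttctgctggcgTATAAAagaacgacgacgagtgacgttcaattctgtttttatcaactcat
his-42 region: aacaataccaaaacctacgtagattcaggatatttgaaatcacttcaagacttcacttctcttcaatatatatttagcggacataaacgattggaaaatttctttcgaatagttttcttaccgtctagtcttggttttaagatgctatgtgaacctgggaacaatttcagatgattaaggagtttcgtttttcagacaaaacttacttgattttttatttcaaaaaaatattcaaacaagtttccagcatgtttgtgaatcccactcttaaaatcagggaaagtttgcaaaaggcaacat
his-60/his-59 spacer: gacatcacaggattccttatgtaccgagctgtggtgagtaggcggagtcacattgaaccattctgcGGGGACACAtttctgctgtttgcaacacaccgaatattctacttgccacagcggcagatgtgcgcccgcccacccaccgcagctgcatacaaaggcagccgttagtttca
his-50/his-49 spacer: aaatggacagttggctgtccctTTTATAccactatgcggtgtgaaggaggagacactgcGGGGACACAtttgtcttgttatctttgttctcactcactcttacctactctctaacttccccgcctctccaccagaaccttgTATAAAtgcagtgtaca
his-14/his-9 spacer: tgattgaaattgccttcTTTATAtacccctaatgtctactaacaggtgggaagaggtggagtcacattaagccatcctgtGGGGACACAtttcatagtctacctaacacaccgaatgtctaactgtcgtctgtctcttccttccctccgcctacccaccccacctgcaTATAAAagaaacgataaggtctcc
his-2/his-1 spacer: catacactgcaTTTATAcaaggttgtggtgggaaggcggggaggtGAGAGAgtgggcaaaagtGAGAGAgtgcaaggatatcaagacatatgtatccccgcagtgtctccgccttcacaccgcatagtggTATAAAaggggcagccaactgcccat

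Most histone genes had no pooled candidate region nearby. A region was assigned to a gene if its middle lay in the gene or within 1000 bp of it. The pooled list held a region for 25 of the 72 histone genes, or 34.7%, against 61.6% of all protein-coding genes and 40.6% of other protein-coding genes up to 600 bp long. The length-limited comparison is given because histone genes are short, with a median of 384 bp. In replicate 1, 24 histone genes had a region (33.3%), against 73.7% of all protein-coding genes and 52.5% of the other short ones. In replicate 2, 29 had one (40.3%), against 73.6% and 51.4%. All 3 candidate lists held a region for 15 histone genes (48.7% of all protein-coding genes, 22.9% of the other short ones). None of the 3 lists held one for 37 (51.4% of histone genes, 10.9% of all protein-coding genes, 25.9% of the other short ones). In a promoter window of 1000 bp before to 500 bp after the start, the pooled list held a region for 15 histone genes (31.1% of all protein-coding genes), replicate 1 for 15 (41.4%) and replicate 2 for 19 (41.3%). All 3 lists held one there for 9 (15.6%) and none of them for 47 (36.6%). The histone genes therefore lay below the share of all protein-coding genes in each of the 3 candidate lists, and in the pooled list they were closer to the share of genes of similar length.

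The regions at histone genes lay throughout the range of ranks. The strongest region of a histone gene lay, at the median, at 28.9% of the way down the pooled list, against 34.7% for all protein-coding genes with a region. In replicate 1 the medians were 38.4% and 31.4%, and in replicate 2 they were 24.3% and 31.1%. Regions in the strongest 10% of the pooled list lay at 8 histone genes, or 11.1%, against 10.9% of all protein-coding genes and 6.08% of the other short ones. In the promoter window they lay at 5, against 4.35%. The final list held 1 peak at histone genes, which lay within 1000 bp of 2 of them (2.78%), against 1.14% of all protein-coding genes and 0.85% of the other short ones. It lay in the promoter window of 1 of them, against 0.561%.

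**Figure D1:**
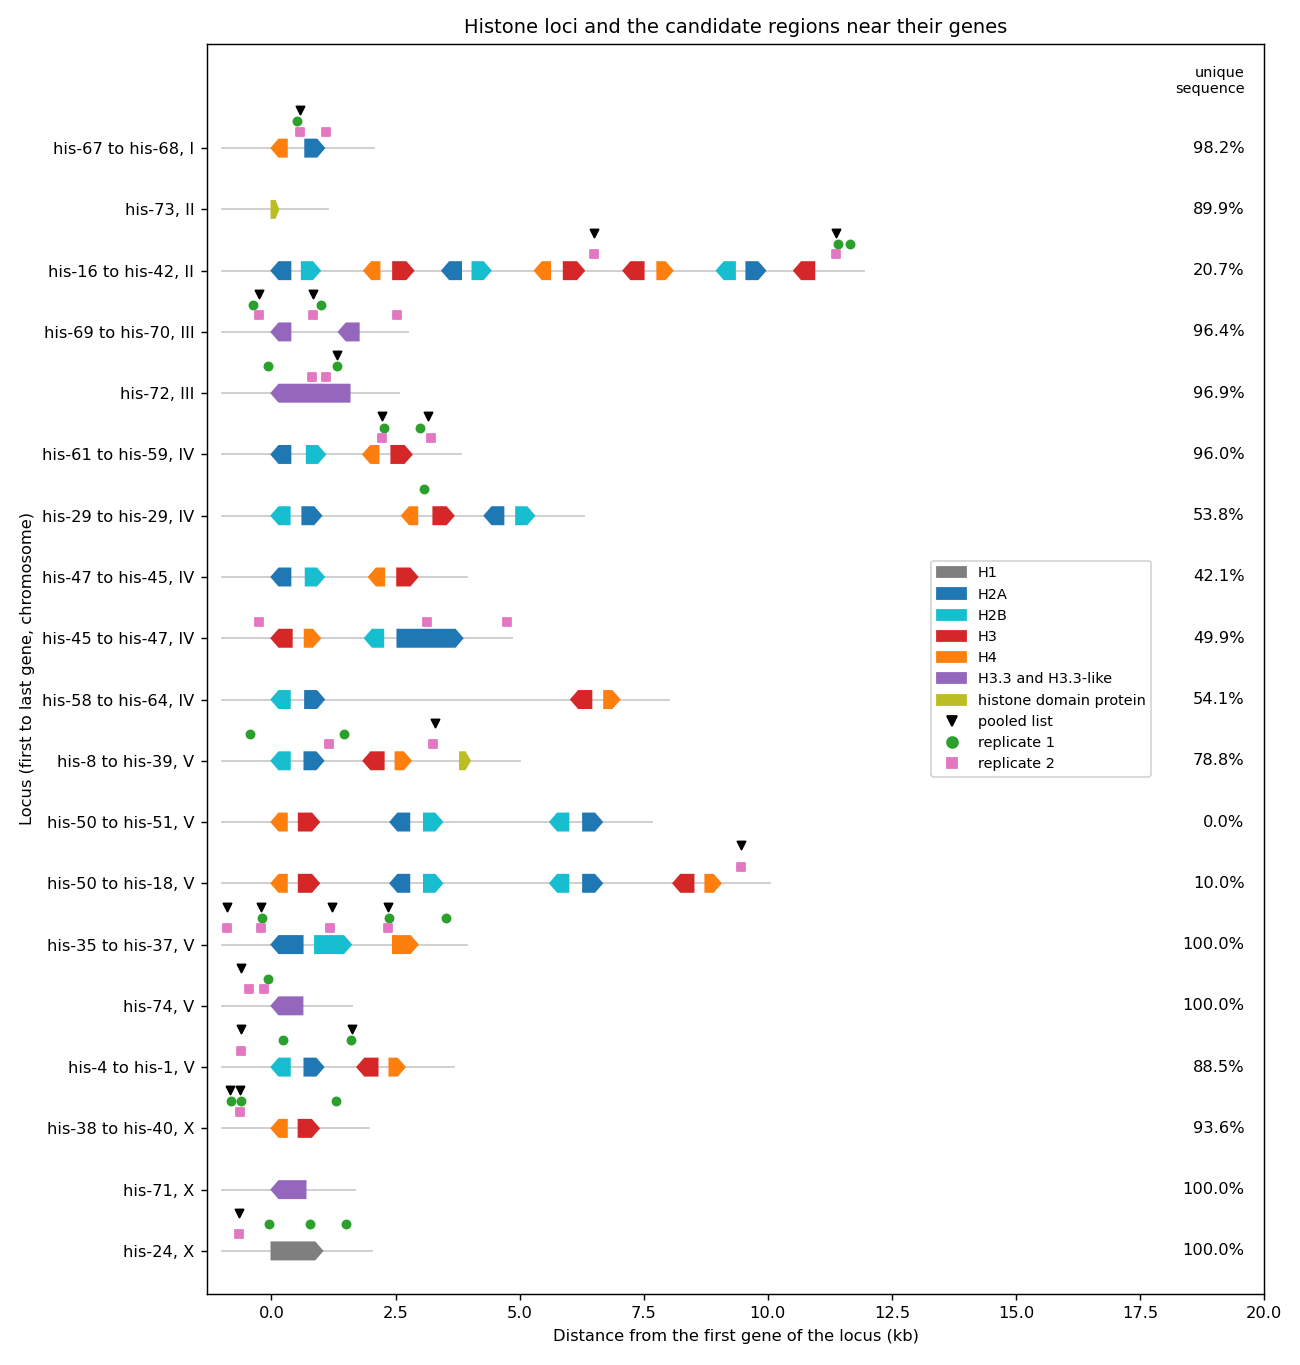
Map of the 19 histone loci, drawn against the distance from its first gene (kb), with genes as arrows coloured by histone class. Symbols above mark the middles of regions in the pooled (triangles), replicate 1 (circles) and replicate 2 (squares) lists, and the share of unique sequence stands at the right. Pooled regions lie at 12 of the 19 loci: the his-35 to his-37 cluster on chromosome V holds 4 of the 20 pooled regions, and 5 of the 11 clusters hold none.

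The strongest region at any histone gene lay just upstream of his-37, one of 3 genes with introns in a small cluster on chromosome V (his-35 for H2A, his-41 for H2B, his-37 for H4). This region, chrV:9546840-9547179, had signal 53.2 and rank 44 in the pooled list, 13.8 and rank 249 in replicate 1, and 37.5 and rank 42 in replicate 2. It was a final peak, with an authors' q value of 0.00592. In both replicates it was thus the highest-ranked region at any histone gene. Its middle lay 96 bp upstream of the annotated start of his-37, and his-41 is the other histone gene within 1000 bp. The gene C50F4.6 ends at 9546841, at the edge of the region, and its start is 917 bp from the middle.

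His-42, an H3 gene at the edge of the 13-gene cluster on chromosome II, had the next strongest region. At chrII:13828957-13829296, it had signal 30.2 and rank 217 in the pooled list, 11.5 and rank 624 in replicate 1, and 22.8 and rank 166 in replicate 2. Its pooled signal was below the weakest signal in the final list, 32.8, and its q value was 0.0115. The middle lay 429 bp upstream of his-42. An snRNA gene, C47F8.9, at 13829305-13829491 and an overlapping ncRNA gene, R05D7.8, which starts at 13829286, adjoin the other side of the region. The regions at his-37 and his-42 were the only pooled regions at histone genes with a q value of 0.05 or less.

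The next 3 regions also reached the strongest 10% of the pooled list. The divergent pair his-67 (H4) and his-68 (H2A) on chromosome I had a region between their starts, with pooled signal 24.1 and rank 533. Its ranks were 5909 in replicate 1 and 828 in replicate 2. Downstream of his-35 lay a region with pooled signal 22.7 and rank 714, at rank 859 in replicate 1 and 6423 in replicate 2. The nearest protein-coding start to it, at 224 bp, was that of mdf-1, a spindle checkpoint gene, and not of a histone gene. A region downstream of his-59, an H3 gene on chromosome IV, had pooled signal 22.5 and rank 759, with ranks of 11520 and 891 in replicates 1 and 2. The 2 replicates thus ranked these 3 regions unevenly, and the better replicate was not the same for all.

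**Figure D2:**
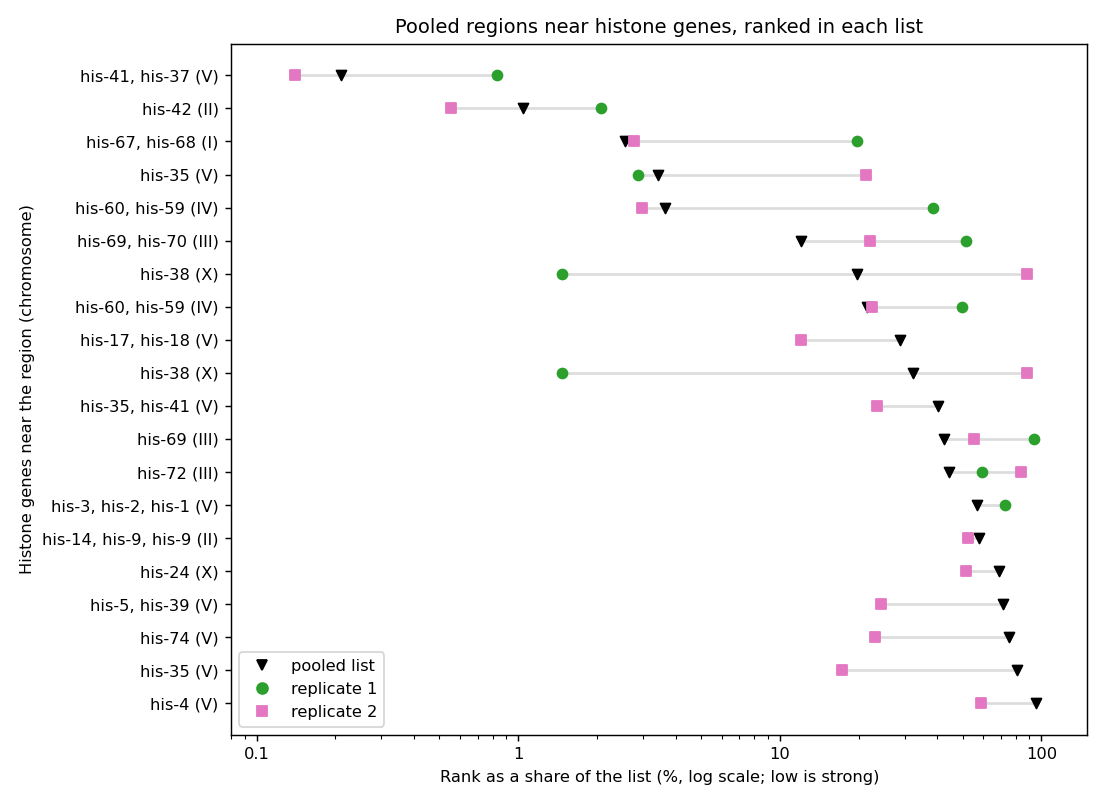
Each row is a pooled region near the named histone genes, and its place in the pooled list (triangle) and in the replicate 1 (circle) and replicate 2 (square) lists is given as a share of the list (%, logarithmic axis, low is strong); a missing symbol means no overlapping region. The regions at his-37 (ranks 249 and 42 in replicates 1 and 2) and his-42 (624 and 166) stand near the left in all lists, while the 2 rows of his-38 (440 and 26548) span most of the axis. Where several regions of a list overlap, the best ranked is drawn. At his-38 replicate 1 also had an overlapping region at rank 20255.

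In all, 20 distinct pooled regions lay at histone genes. Replicate 2 held an overlapping region for 19 of them and replicate 1 for 12, with 11 overlapped in both and none in neither. Over those 11 the ranks in the 2 replicates had a Spearman correlation of 0.22, given as a description. Both pooled regions at his-38 carry the same ranks, 440 and 26548, so this discordant pair enters the correlation more than once. The value without the repeat is not given here, and 0.22 is no measure of agreement between the replicates. Of the 72 genes, 12 had a pooled region that was overlapped in both replicates. Such overlaps over all 20876 pooled regions are not given here, so these counts are not read as particular to histone genes. Downstream of the nearest histone gene lay 12 of the regions, upstream lay 6, and 2 lay inside a gene. This split is not given here for other genes. Many clustered genes share a short spacer on their upstream side, and the part of this layout in the split was not tested. For 6 of the 20 the nearest protein-coding start belonged to another gene.

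The counts by kind of locus were compared without a test. Of the 61 clustered genes, 17 had a pooled region (27.9%), 15 a replicate 1 region and 21 a replicate 2 region. Without the his-35 to his-37 cluster, chosen for this after its values were seen, 14 of the other 58 had a pooled region (24.1%). All 6 paired genes had a replicate 1 region, and 5 (83.3%) had one in the pooled list and 5 in replicate 2. Of the 5 single genes, 3 had a region in each list. In none of the 3 lists were 35 of the clustered genes, 0 of the paired and 2 of the single ones.

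The share of unique sequence moved with these counts. Histone genes with a pooled region had a median of 92.7% unique windows, those without had 16.7%, and those without a region in any of the 3 lists had 10.6%. Among the 35 genes with an exact copy elsewhere, 3 had a pooled region, 0 a replicate 1 region and 6 a replicate 2 region. Among the 37 without a copy, the counts were 22, 24 and 23. None of the 15 genes without unique windows had a region in any list. Of the 12 clustered genes with at least 80% unique windows, 9 had a pooled region (75.0%), 9 a replicate 1 region and 7 a replicate 2 region.

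Among other protein-coding genes, too, regions were found at a smaller share of genes where less sequence was unique. Under 50% unique windows, a pooled region lay at 6 of 40 histone genes (15%) and at 9.14% of the 350 other genes. From 50 to 80%, it lay at 2 of 9 histone genes and at 34.8% of the other genes. With 80% or more, it lay at 17 of 23 histone genes (73.9%) and at 63.9% of the other genes, or 45% of those up to 600 bp long. In replicate 1 the highest class held 18 of the 23 histone genes (78.3%) against 76.3% of the others, and in replicate 2 it held 15 (65.2%) against 76.2%. In the lowest class replicate 1 had a region at 1 of the 40 histone genes (2.5%) and at 12% of the others. Replicate 2 had one there at 9 of the 40 (22.5%) and at 10.6% of the others, so the 2 replicates differed in direction. In the middle class each replicate had a region at 5 of the 9 histone genes, against 48.5% and 47.1% of the others. None of the 3 lists held a region for 31 of the 40 histone genes in the lowest class (77.5%), against 81.1% of the others there. Under 50% unique sequence are 55.6% of the histone genes and 1.95% of all protein-coding genes. Of the pooled regions themselves, 99.3% had at least 80% unique windows and 0.0575% had under 50%. How the authors treated reads that match several places is not given in the sources used here, so a repeated gene without a region cannot be told apart from one whose reads were not placed, and the part of unique sequence in the counts was not tested.

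**Figure D3:**
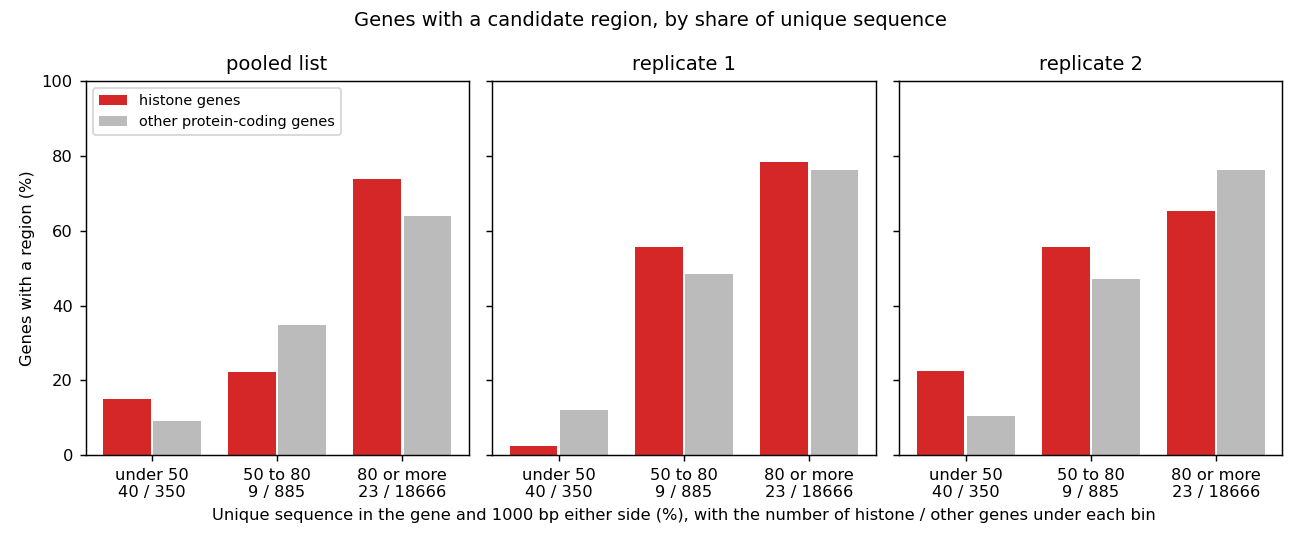
Share of genes with a region in the gene and 1000 bp either side (vertical axis, %) by their share of unique 50-base windows, for histone genes and other protein-coding genes in the 3 candidate lists; the numbers of genes stand under each class. For the pooled list the histone bars stand at 15%, 22.2% and 73.9% and the others at 9.14%, 34.8% and 63.9%, and neighbouring histone genes can share a region.

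Counted by length of sequence, the pooled list held 19.9 regions per 100 kb of histone gene windows (20 regions in 100.7 kb) and 20.8 per 100 kb of the nuclear genome. Per 100 kb of unique sequence the values were 34.7 at histone genes and 22.3 in the genome. At clusters without the his-35 to his-37 cluster, the pooled value per 100 kb of unique sequence was 27.1, and at single genes it was 21.8. At pairs it was 53.2, and at the his-35 to his-37 cluster 80.8. Per 100 kb of unique sequence, replicate 1 had 41.7 regions at histone genes against 32 in the genome, and replicate 2 had 45.2 against 32. At clusters without the his-35 to his-37 cluster these were 30.5 in replicate 1 and 37.3 in replicate 2, so that replicate 1 lay below the genome's value there. At the his-35 to his-37 cluster they were 60.6 and 80.8 in replicates 1 and 2. At pairs they were 63.8 in each replicate, and at single genes 43.7 and 36.4. These windows lie by construction at genes, and a few regions decide the values, so they are given without a test.

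**Figure D4:**
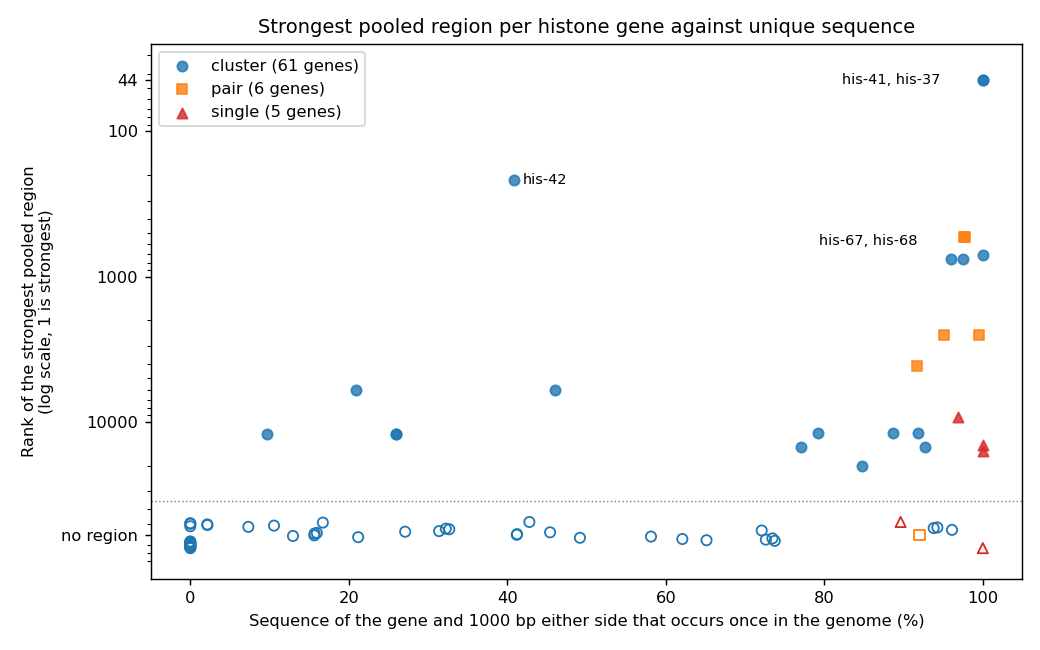
Each point is a histone gene, placed by its share of unique 50-base windows (horizontal axis, %) and the rank of its strongest region in the pooled list (vertical axis, logarithmic, strongest at the top), with shape and colour for clusters, pairs and single genes; open symbols below the dotted line are genes without a region, spread vertically only for legibility. The 15 genes without unique sequence are all below the line, and the 2 genes at rank 44, his-41 and his-37, lie at the right edge.

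By chromosome, a pooled region lay at 12 of 27 histone genes on V, 4 of 14 on II and 2 of 22 on IV. On I it was 2 of 2 genes, on III 3 of 3 and on X 2 of 4, where 66.9% of all protein-coding genes on X had one. Over all chromosomes 61.6% of protein-coding genes had one. The shares for each of the other chromosomes are not given here, so these counts describe the histone genes and do not compare chromosomes. The 22 genes on chromosome IV are all in clusters. Their 2 genes with a pooled region, his-60 (H4) and his-59 (H3), belong to the locus of chromosome IV with the most unique sequence, 96.0%. The cluster from his-50 to his-51 on V, chrV:8847393-8854053, has 6 genes and no unique window, and no list held a region there. A second copy of that cluster lies at chrV:8889488-8898539 with his-17 (H3) and his-18 (H4) at its end. Its single pooled region, at rank 6027, lay downstream of his-18 and 111 bp from the start of another gene, frpr-13.

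The replicate lists differed at individual clusters. The cluster at chrIV:11337853-11341703 (his-45, his-46, his-58 and his-47) had 3 regions in replicate 2, the best at rank 7365, and none in replicate 1 or the pooled list. The cluster at chrIV:8331044-8336340 had 1 region in replicate 1, at rank 12933, and none in the other 2 lists. At his-38, an H4 gene on X, replicate 1 had a region at rank 440 with signal 12.2, and replicate 2 had an overlapping one at rank 26548 with signal 6.86. Replicate 1 also had a weak region there, at rank 20255 with signal 4.69. It overlapped more of the replicate 2 region than the one at rank 440 did. The pooled list had 2 overlapping regions there, at ranks 4113 and 6761, both downstream of the gene.

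The weaker pooled regions at clustered genes were mostly downstream and mostly matched in replicate 2, without the shares over all pooled regions to set beside this. At the 3-gene cluster with his-37, a region inside his-41 had rank 8433 and another, 889 bp past the end of his-35 in an exon of mdf-1, had rank 16792; replicate 2 held both, at ranks 7047 and 5168, and replicate 1 neither. The cluster from his-4 to his-1 on V, which has 88.5% unique sequence, had regions downstream of his-2 (H3) at rank 11842 and downstream of his-4 (H2B) at rank 19997. The first was matched only in replicate 1, at rank 21703, and the second only in replicate 2, at rank 17640. On chromosome II the repeated part of the cluster had 1 pooled region, at rank 12102, between 2 convergent copies of the H3 gene his-9, with rank 15740 in replicate 2 and no match in replicate 1. None of these 5 ranked above 8433.

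By histone class, a pooled region lay at 8 of 16 H4 genes and 6 of 15 H3 genes. It lay at 3 of 17 H2A genes and 2 of 16 H2B genes. Among genes with at least 80% unique windows, the counts were 5 of 6 for H4, 2 of 3 for H3, 2 of 3 for H2A and 2 of 3 for H2B. The gap between H3 or H4 and H2A or H2B thus had few unique genes on either side.

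Of the 5 genes for H3.3 or H3.3-like proteins, 4 had a pooled region and none of those was in the strongest 10% of the list. The best lay between his-69 and his-70 on chromosome III, both H3.3-like, with pooled signal 18.0 and rank 2519, and with ranks of 15414 and 6653 in the replicates. His-72, for H3.3, had a region in an intron at pooled rank 9243, with overlapping regions at ranks 17720 and 25044 in replicates 1 and 2. Replicate 2 also had a region in his-72 at rank 10112. A snoRNA gene, Y49E10.36, lies within his-72 near the pooled region, at chrIII:12368319-12368544. At his-74, also H3.3-like, the pooled region (rank 15709) lay 613 bp past the gene's end in an exon of ccch-3. His-71, the other H3.3 gene, had no region in any list although all windows there are unique. The H1 gene his-24 had a pooled region 650 bp upstream at rank 14359. Replicate 2 overlapped it at rank 15495, while the 3 replicate 1 regions at his-24, at ranks 3384, 6068 and 17929, lay elsewhere. Of the short domain genes, his-73 had no region in any list, and his-39 had a pooled region at rank 14865, downstream of his-5.

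The spacers between divergent histone genes, where the paired genes have their promoters, were examined as a set. There were 31 such spacers of 227 to 368 bp, of which 17 have no unique window. The middle of a region lay in 2 of them in the pooled list, 3 in replicate 1 and 2 in replicate 2. Per 100 kb of spacer this was 23.9 in the pooled list, 35.9 in replicate 1 and 23.9 in replicate 2, from 8.35 kb in all, against 20.8, 29.9 and 29.9 per 100 kb of the nuclear genome. These values rest on 2 or 3 regions each and count all spacer bases, also those of the 17 spacers without a unique window. All 3 spacers with a region middle in any list had at least 80% unique windows. Values per 100 kb of unique spacer sequence are not given here, so the spacers are not read as near or far from the genome. The 2 found in all 3 lists were his-67/his-68 and his-60/his-59. In the latter the pooled region had signal 16.1 and rank 4507, and its ranks were 14974 and 6754 in replicates 1 and 2. None of the 16 spacers between H2A and H2B genes held a region middle in any list. Of the 11 spacers with at least 80% unique windows, 3 held one, and of the 4 between H2A and H2B among them, 0 did. The his-35/his-41 spacer was one of those 4, although its cluster held the final peak. Upstream of his-37, where that peak lay, there is no divergent histone gene.

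Short motifs were searched on both strands in promoters, taken as the 250 bp before and 50 bp after each annotated start. In 65 of the 72 histone genes the annotated start is the ATG, so the window is placed on the start codon rather than on the start of transcription. TATAAA, the core of a common promoter element, was present in 47 of 72 histone promoters (65.3%) and in 37.9% of all 19973 promoters. GAGAGA, a simple repeat, was present in 33 (45.8%) against 21.8%. AGGTCA, a half-site of many nuclear receptors, was present in 2 (2.78%) against 8.27%. CTGCGTCTC, a motif of many open C. elegans promoters, was present in 2 (2.78%) against 2.93%, namely those of his-67 and his-68. The spacers between divergent histone genes have a median of 258 bp, so the promoters of such a pair largely cover the same bases. A single match can therefore count for both genes, as for CTGCGTCTC, which was in 1 of the 31 spacers. A match is a description of letters and not of a site.

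GGGGACACA, a motif picked after the spacer sequences had been seen, was present in 34 histone promoters (47.2%) and in 57 of all 19973 (0.285%). The other 23 promoters with it did not start within 1000 bp of a histone gene. Because of the repeats, the 72 histone promoters comprise 51 distinct sequences, of which 21 hold it. Both genes of a divergent pair can count the same match in their shared spacer, also among the 51 sequences. Neither the 34, the 21 nor the counts by class are thus numbers of separate promoters. By class it was in 10 of 16 promoters of H4 genes, 8 of 15 of H3, 8 of 17 of H2A, 7 of 16 of H2B and that of the H1 gene his-24. It was in 16 of the 31 divergent spacers and in none of the 5 promoters of H3.3 or H3.3-like genes. Of the 20876 pooled regions, 20 hold the motif, and 3 of these lay at histone genes: his-37 (rank 44), his-67/his-68 (rank 533) and his-60/his-59 (rank 4507). The remaining 17 of the 20 at histone genes, that of his-42 included, do not hold it. Among the 11 divergent spacers with at least 80% unique windows, his-6/his-5 (97.9%) and his-4/his-3 (100%) hold the motif but no region middle in any list. The his-31/his-32 spacer lacks it and held a replicate 1 region at rank 12933. Apart from these and the his-67/his-68 and his-60/his-59 spacers, the rest of the 11 have neither. A link between motif and regions was not tested.

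Histone genes outside the his series were compared as a list of 11, which includes the H2A.Z gene htz-1 and the H1-like hil genes. A pooled region lay at 9 of the 11 (81.8%, against 61.6% of all protein-coding genes), and all 3 lists held one for 6 (54.5%, against 48.7%), namely htz-1, hil-1, hil-2, hil-3, hil-6 and hil-8. The highest ranked was at htz-1, 298 bp upstream of its start, with pooled signal 26.1 and rank 366 and with ranks of 4341 and 1028 in replicates 1 and 2. A list of 14 genes for histone chaperones and histone mRNA processing had a pooled region at 7 (50%, against 61.6%), a replicate 1 region at 12 (85.7%, against 73.7%) and a replicate 2 region at 9 (64.3%, against 73.6%). All 3 lists held one for hmg-3, hmg-4, spt-16, chaf-1, lin-53, asfl-1 and hira-1, the same 7 as in the pooled list (50%, against 48.7%). For both sets of genes the share with a region in all 3 lists was thus near that of all protein-coding genes. These genes are mostly longer than the his genes, and so are their windows. Its highest ranked was at lin-53, which encodes a histone-binding WD-repeat protein, 131 bp upstream, with pooled signal 23.5 and rank 596. The gene for the stem-loop binding protein CDL-1 had no region in any of the 3 lists. Neither list had a gene with a final peak.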

How the data were processed

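Per the labels, the 2 samples are biological replicates of 1 ChIP-seq experiment on eGFP-tagged NHR-28. The authors deposited peak lists on ce11. The signal column and the −log10 q values in them are the authors' own, while the aligner, the peak caller and the read length were not stated in any source used here. Lists on ce10 were not used, and the possible control named in the labels was not analysed here. The deposited file list says that candidate lists were derived from alignments and a control. Read depth is unknown, so no counting error can be given.

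Genes came from Ensembl release 115 (WBcel235), product names and sequence from RefSeq. Assignment, uniqueness of 50-base windows, exact copies and motifs were computed with Python 3.11.15, numpy 2.4.6, pandas 2.3.3 and scipy 1.17.1; assignment and uniqueness were tested on simulated data. Regions overlapping by at least 1 bp were matched between lists. With 1 group no test between samples was possible, and shares are set beside those of all protein-coding genes. Named were the single genes, the gene or genes at each final peak and at the 20 strongest pooled regions, the strongest region of each cluster, the 3 strongest per replicate, and members of the other lists with a region in all 3 lists; any other gene, such as cdl-1, was picked with its values known. The members and lists were chosen with earlier results of these data known.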

Additional observations from a re-analysis of the deposited data

How the results depend on the processing

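With 500 bp on either side in place of 1000 bp, 14 histone genes had a pooled region (main value 25) and 17 a replicate 2 region, 9 had one in all 3 lists, 1 had the final peak, 16.4% of clustered genes had a pooled region and the median place of the strongest one was 16.8%. With 2000 bp, 24 had a region in all 3 lists. In a promoter window of 1000 bp before to 500 bp after the start, the counts were 15 pooled, 15 in replicate 1, 19 in replicate 2, 9 in all 3 lists, 5 in the strongest 10% and 1 with the final peak, with 13 distinct regions and 16.4% of clustered genes. Using the stronger 50% of each list, 14 genes had a pooled region, 8 had one in all 3 lists, 13 regions were distinct, the clustered share was 13.1% and the median place 3.64%. At a q value of 0.05 or less, 3 genes had a pooled region, 3 had one in all 3 lists and 3 were in the strongest 10%; 2 regions were distinct, the clustered share was 4.92%, the share of single genes 0 and the median place 0.211%. Restricted to windows with at least 80% unique sequence, an alternative added after seeing the data, the clustered share was 75.0%. Leaving out 1 replicate gave 18 to 22 genes in all remaining lists and 24 to 29 for the single list left. The remaining lists include the pooled list, which was made from both replicates, so the 18 to 22 still draw on the omitted replicate. The values listed here up to the 75.0% are the 28 alternatives that moved. For counts, moved means beyond 1.5 times the main count, and for shares and medians beyond their counting interval or replicate spread. The values without 1 replicate and all other alternative values, 51 together, stayed within these limits. No paired analysis was possible because the samples form 1 group. The lists hold no reads, so a gene with no region cannot be told apart from one whose signal was too weak for the list.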
